A study of Mus musculus with 3 samples.

Results

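Fas and the genes of death receptor signalling were followed in cultured mouse spleen cells after contact with urine. The 9 genes described were Fas, Fasl, Fadd, Casp8, Cflar, Tnfrsf10b, Tnfsf10, Tnfrsf1a and Ripk1, out of 36609 gene names on the array. They were taken by name and not by their values, and every non-control probe carrying one of these names was used, 20 probes in all. Expression was measured on 3 single-colour arrays, 1 per condition, all on 1 slide. The cells came from the spleen of male MRL/MpJ mice aged 6 months and were kept for 3 h with either PBS, MRL/MpJ urine or MRL/MpJ-Faslpr/lpr urine (lpr urine from here on). Urine came from 6 male donors of 6 months per strain and was pooled by strain, spun and passed through a 0.22 µm filter, with 500 µL of medium per well. The responding cells were MRL/MpJ on all 3 arrays, a strain whose own Fas gene is intact, so that the lpr mutation was present in the urine donors only. The labels' protocol speaks of a single spleen and the design text of spleens, and the share of urine in the well is not stated.

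Fas is a receptor of the tumour necrosis factor receptor family with a death domain in its tail. On binding Fas ligand it gathers the adaptor FADD, which recruits procaspase-8. The caspase-8 relative c-FLIP, encoded by Cflar, competes at this step. TRAIL, encoded by Tnfsf10, acts in the same way through its receptor Tnfrsf10b, whereas TNF receptor 1, encoded by Tnfrsf1a, first builds a complex around the kinase RIPK1 that signals survival and can turn to death. In the spleen, Fas removes activated and self-reactive lymphocytes, and the lpr mutation, which disrupts Fas, leads to accumulation of T cells and lupus-like disease on the MRL background.

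With 1 array per condition there was no replicate, so no difference has a test, and treatment, culture well and array cannot be told apart. The values are processed signals in arbitrary intensity units, given with the error that the scanning software assigns to the spot. Differences are on the log2 scale after the 75th percentile of each array was subtracted, and their error joins the errors of both spots. A probe is counted as higher or lower where it differed at least 2-fold and the software called it well above background on both arrays. The 75th percentile was 216 for PBS, 117 for MRL/MpJ urine and 102 for lpr urine, while the spike-in RNA differed from PBS by 0.03 and -0.06 on the log2 scale. Between 55.3% and 59.0% of 56599 probes were well above background, and no probe was saturated. From repeated spots within each array, the SD that a difference between arrays would have from spotting error only was calculated. It was 0.251 for dim spots (log2 signal under 5), 0.122 for those from 5 to 8, and 0.0522 for bright ones (over 8). In these bulk samples, fewer cells of a type and less RNA per cell cannot be told apart.

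Of the 20 probes, 19 were well above background on all 3 arrays. After MRL/MpJ urine, 7 of the 19 were at least 2-fold lower than with PBS and 0 were higher. Over all 30286 probes measured on both arrays, 11.8% were lower and 16.1% higher. After lpr urine, 5 of 19 were lower and 0 higher, against 12.5% lower and 17.6% higher among 29741 probes. The median difference of the 19 probes was -0.43 after MRL/MpJ urine and -0.51 after lpr urine, where the medians of all probes were 0.09 and 0.11. Among all probes within the members' own range of PBS signal (22.9 to 958), 14.4% and 15.1% were lower, and 12.3% and 13.5% higher. The probes that were lower in both urines were those of Fadd, Tnfrsf10b (probe 1), Cflar (probes 1 and 4) and Ripk1 (probe 3). Both urines were set against the same PBS array, so their differences share its error. The counts depend on the scaling: with spike-in scaling 15 and 16 of 19 probes were lower, where 43.1% and 47.0% of all probes were. With normexp background correction 2 and 2 were lower, the Cflar probes 1 and 4, where 6.14% and 6.9% of all probes were.

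**Figure D1:**
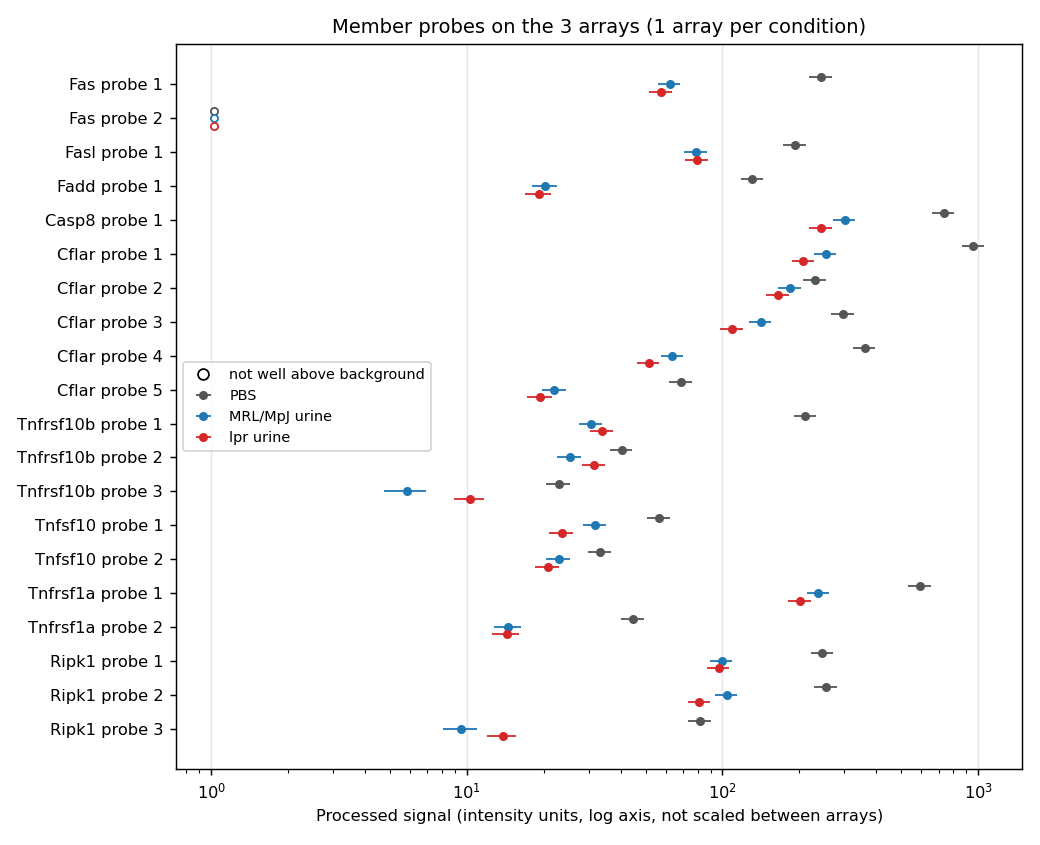
Processed signal of each of the 20 probes (log axis, intensity units, not scaled between arrays) for PBS, MRL/MpJ urine and lpr urine, 1 array each, with bars for the software's error. Open symbols mark Fas probe 2, which was not well above background, and the 19 other probes were dimmer on both urine arrays than on the PBS array. The 75th percentile of all non-control spots was also lower on the urine arrays, at 117 and 102 against 216 for PBS.

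Fas was measured by 1 of its 2 probes. The array annotates these probes to different transcripts of the gene, and they are shown by their first 30 bases, since the measured level of Fas rests on the first of them alone.
Fas probe 1: gaagaccttccattgatggacagttctttt
Fas probe 2: ggagagactctttaaaatgaaaacacaata
Probe 1 lies on NM_007987 at chr19:34402164-34402223 (mm9, plus strand) and read 243 ± 24.3 with PBS, 62.1 ± 6.28 after MRL/MpJ urine and 57.6 ± 5.84 after lpr urine. The PBS array stood above both urine arrays, which differed by less than their errors. The scaled difference from PBS was -1.08 ± 0.21 for MRL/MpJ urine, 2.11-fold lower, and -0.99 ± 0.21 for lpr urine, 1.99-fold lower. Fas was past the 2-fold line with MRL/MpJ urine and just short of it with lpr urine, in each case by less than its error. Of all probes, 10.4% lay further down after MRL/MpJ urine and 12.7% after lpr urine. Probe 2, on NM_001146708 at chr19:34383733-34383792, read 1.03 on each array and was not well above background on any, so it gives no fold. Over the scalings tried, the difference of probe 1 ran from -2.0 to -0.70 for MRL/MpJ urine and from -2.02 to -0.62 for lpr urine.

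Tnfrsf1a, the TNF receptor that carries a death domain, was read by 2 probes on NM_011609. Probe 1, at chr6:125312376-125312435 (mm9), read 593 ± 59.3 with PBS, 237 ± 23.7 after MRL/MpJ urine and 201 ± 20.1 after lpr urine. Its scaled differences of -0.43 ± 0.20 and -0.47 ± 0.20 were within 2-fold. Probe 2, at chr6:125311454-125311513, read 44.8 ± 4.59, 14.5 ± 1.78 and 14.3 ± 1.76 in the same order. It differed from PBS by -0.73 and -0.55, with the sign turned to 0.14 and 0.26 by normexp background correction. Both probes were thus lower with either urine by less than 2-fold at the main scaling, and by more than 2-fold with spike-in scaling (-1.36 to -1.65).

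Tnfrsf10b, the TRAIL receptor, gave different answers by probe. The 3 probes share no stretch longer than 8 bases, and they lie within a few kilobases on chromosome 14. They are shown by their first 30 bases because their differences had opposite signs.
Tnfrsf10b probe 1: gatgtccttttctagtgtgtttgaagccag
Tnfrsf10b probe 2: ttctataaatctttgtcgtcctcacatgta
Tnfrsf10b probe 3: gcaccggatccagaaggagaaataactacc
Probe 1, on NM_020275 at chr14:70184141-70184200 (mm9), read 211 ± 21.1 with PBS, 30.6 ± 3.22 after MRL/MpJ urine and 33.8 ± 3.53 after lpr urine. It was 3.71-fold and 2.93-fold lower than PBS (-1.89 ± 0.21 and -1.55 ± 0.21), and with normexp background correction inside 2-fold, at -0.98 and -0.80. Probe 2, on ENSMUST00000224533.1 at chr14:70179395-70179454, read 40.3 ± 4.14, 25.3 ± 2.70 and 31.5 ± 3.29. Its differences were 0.22 and 0.73, above 0 here but -0.71 and -0.30 with spike-in scaling. Probe 3, also on NM_020275, at chr14:70183189-70183248, was dim, with 22.9 ± 2.46, 5.82 ± 1.08 and 10.3 ± 1.37. It was lower with MRL/MpJ urine (-1.08 ± 0.31) but near PBS with lpr urine (-0.06 ± 0.25). For MRL/MpJ urine the detection limit (the dimmest probe called well above background) was 4.46, and with normexp background correction its difference turned to 0.26.

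Both ligands were within 2-fold of PBS on every probe at the main scaling. Fasl, the Fas ligand of activated T cells and natural killer cells, was read by 1 probe on NM_010177 at chr1:163711056-163711115 (mm9, minus strand). It read 192 ± 19.3 with PBS, 78.8 ± 7.95 after MRL/MpJ urine and 79.7 ± 8.05 after lpr urine, the urine arrays being equal within error. After scaling, its differences were -0.39 ± 0.21 and -0.18 ± 0.21, and with spike-in scaling -1.32 and -1.22. The difference between Fasl and its receptor Fas was not tested.

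Tnfsf10, which encodes TRAIL, had 2 probes of different design. Probe 1 consists of a 15-base unit repeated 4 times, the first copy in capitals below, and only 6 of 56599 probes on the array were made of 1 repeated unit. It is printed for this design, beside the start of the other probe.
Tnfsf10 probe 1: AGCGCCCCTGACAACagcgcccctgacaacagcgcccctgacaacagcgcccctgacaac
Tnfsf10 probe 2: gggaaatgttaaactttgtaaactctgaaa
Probe 1, placed on ENSMUST00000174840.1 at chr3:27241303-27241349 (mm9), read 56.4 ± 5.73 with PBS, 31.7 ± 3.33 after MRL/MpJ urine and 23.5 ± 2.56 after lpr urine. Its differences from PBS were 0.06 and -0.18, both within their errors, and -0.86 and -1.21 with spike-in scaling. Probe 2, on NM_009425 at chr3:27238508-27238567, read 33.1 ± 3.44, 22.9 ± 2.47 and 20.7 ± 2.27. Its differences of 0.36 and 0.41 were within 2-fold, and they were -0.56 and -0.62 with spike-in scaling. At the main scaling TRAIL was thus within 2-fold of PBS on both probes. The signs of the 2 probes were alike with MRL/MpJ urine and opposite with lpr urine.

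Fadd, the adaptor between Fas or TRAIL receptors and caspase-8, was among the lower genes. Its probe on NM_010175 has 40 of its 60 bases placed at chr7:151764228-151764267 (mm9, minus strand) and read 131 ± 13.2 with PBS, 20.2 ± 2.24 after MRL/MpJ urine and 19.1 ± 2.15 after lpr urine. The PBS signal was far above both urine signals, which did not differ beyond error. Fadd was 3.50-fold lower with MRL/MpJ urine and 3.23-fold lower with lpr urine (-1.81 ± 0.22 and -1.69 ± 0.22), a position below which 3.2% and 4.1% of all probes lay. With normexp background correction the differences were -0.66 and -0.53, inside 2-fold. A probe that the array names Slc3a2 also lists NM_010175 among its transcripts. It read 1080, 729 and 863, with differences of 0.32 and 0.76, and was not counted among the 20.

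Casp8, the initiator protease of the complex, was read by 1 probe on NM_009812 at chr1:58901601-58901660 (mm9). The whole probe is shown as the gene's only readout.
Casp8 probe 1: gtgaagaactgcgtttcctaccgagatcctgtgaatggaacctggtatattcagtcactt
It read 732 ± 73.2 with PBS, 301 ± 30.1 after MRL/MpJ urine and 243 ± 24.3 after lpr urine. Its scaled differences were -0.39 ± 0.20 and -0.51 ± 0.20, within 2-fold of PBS with either urine at the main scaling, and -1.32 and -1.54 with spike-in scaling.

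Cflar, the inhibitor of caspase-8 recruitment, has 5 probes, and these spread more than the probes of most genes. Its probes spanned 2.18 log2 units after MRL/MpJ urine and 2.33 after lpr urine, against a median span of 0.56 and 0.59 and a 90th percentile of 2.02 and 2.09 over genes with several measured probes. Those genes were not matched to Cflar for the number of probes, and a span can only widen as probes are added. The lowest and the highest probe are shown by their first 30 bases.
Cflar probe 4: ctttcttgctgatgtataaattgcctcctt
Cflar probe 2: gggacttgggaagttggagagctgactcct
Probe 4, on NM_009805 at chr1:58789994-58790053 (mm9), read 360 ± 36.1 with PBS, 63.7 ± 6.46 after MRL/MpJ urine and 51.4 ± 5.25 after lpr urine. It was 3.05-fold and 3.30-fold lower (-1.61 ± 0.21 and -1.72 ± 0.21). Probe 1, on NM_207653 at chr1:58815653-58815712, read 958 ± 95.8, 253 ± 25.4 and 207 ± 20.8. Its differences of -1.03 and -1.12 passed the 2-fold line within error. Probe 2, on the non-coding transcript NR_149258 at chr1:58770546-58770605, read 230 ± 23.1, 184 ± 18.4 and 165 ± 16.5. It lay above PBS after scaling, by 0.57 and 0.60, but the differences were -0.36 and -0.43 with spike-in scaling. Probe 3, at chr1:58811116-58811175, differed by -0.18 and -0.36. Probe 5, whose annotated span from 58783552 to 58788030 covers 4479 bases, differed by -0.75 and -0.74, and the latter was 0.05 with normexp background correction.

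Ripk1, the kinase shared by TNF receptor signalling and necroptosis, had 2 probes with like differences and 1 that was lower. The sequences of the 3 probes begin as follows, printed because the level of the gene depends on which is read.
Ripk1 probe 1: ttgagcatccaatgctgtactgtcacctta
Ripk1 probe 2: tcagacctgagtgtcattgtccacatcatg
Ripk1 probe 3: tttctctccatcctgtcttctcttaggttc
Probe 1, on NM_009068 at chr13:34125152-34125211 (mm9), read 246 ± 24.6 with PBS, 99.2 ± 9.97 after MRL/MpJ urine and 96.5 ± 9.69 after lpr urine, with differences of -0.41 and -0.26. Probe 2, on NM_001359997 at chr13:34126830-34126889, read 254 ± 25.4, 104 ± 10.4 and 81.3 ± 8.18, with differences of -0.40 and -0.56. These probes were within 2-fold at the main scaling, and between -1.29 and -1.59 with spike-in scaling. Probe 3, on ENSMUST00000163418.1 at chr13:34106391-34106450, read 81.8 ± 8.25, 9.50 ± 1.45 and 13.8 ± 1.77. It was 4.64-fold lower with MRL/MpJ urine and 2.79-fold lower with lpr urine (-2.21 ± 0.26 and -1.48 ± 0.24). With normexp background correction its differences were -0.38 and -0.15, inside 2-fold. The span of Ripk1 probes was 1.81 and 1.22 log2 units.

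**Figure D2:**
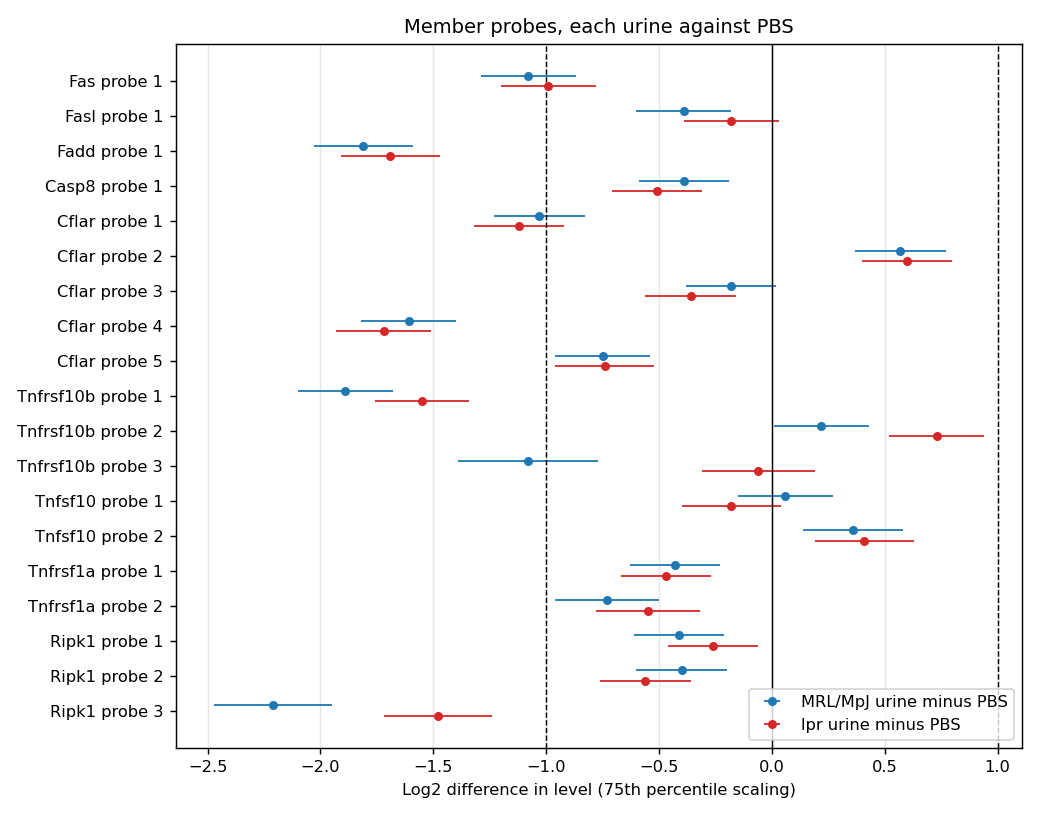
Log2 difference of each of the 19 measured probes between either urine array and the PBS array after 75th percentile scaling, with bars for the joint error of both spots and dashed lines at 2-fold. The Fadd probe, Cflar probes 1 and 4, Tnfrsf10b probe 1 and Ripk1 probe 3 lie beyond the lower line with both urines, and no probe lies beyond the upper line.

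Most members lay below 0 in both comparisons. With MRL/MpJ urine 15 of 19 probes were below 0, and with lpr urine 16, where 46.2% and 45.6% of all probes were. Every measured probe of Fas, Fasl, Fadd, Casp8, Tnfrsf1a and Ripk1 was below 0 with both urines, whereas Cflar, Tnfrsf10b and Tnfsf10 had probes on both sides of 0 with at least 1 urine (Tnfsf10 with lpr urine alone), under 75th percentile scaling. Without scaling, 19 of 19 were dimmer on both urine arrays. The 75th percentiles of those arrays themselves differed from PBS by -0.89 and -1.09 log2 units. The share of all probes dimmer without scaling is not given, so this count is not a trait of the members. Relative to the median of all probes, 16 of 19 lay lower with each urine under 75th percentile scaling. Median and spike-in scaling shift each array by 1 constant, so this count could not change with them. It was 16 with quantile normalisation and 15 with normexp background correction. Of the 7 calls after MRL/MpJ urine, 3 were within error of the 2-fold line, as was 1 of 5 after lpr urine. The other 4 calls in each comparison (Fadd, Tnfrsf10b probe 1, Cflar probe 4 and Ripk1 probe 3) lay beyond it by more than the error. With normexp background correction Cflar probe 4 alone of these 4 was still at least 2-fold lower.

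**Figure D3:**
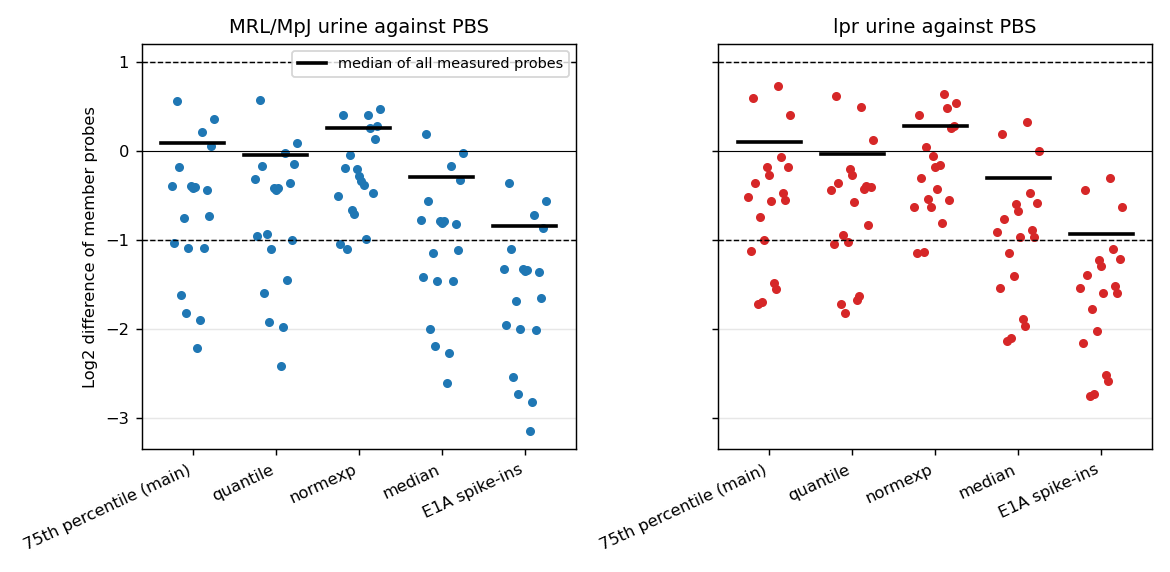
Log2 difference of the 19 member probes from PBS (left, MRL/MpJ urine; right, lpr urine) under 5 ways of scaling or background correction, points being probes and the black bar the median of all measured probes. The member probes move with the bar, and 16 of 19, or 15 with normexp, lie below it.

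Urine from donors with and without functional Fas was compared directly, with no PBS array involved. Of 19 probes, 1 was at least 2-fold higher with lpr urine and 0 were lower, where 0.291% of 30606 probes were higher and 0.0784% lower. The probe was Tnfrsf10b probe 3 (1.02 ± 0.33, 2.02-fold), a dim one, within error of the line. It lay inside 2-fold with median, spike-in or normexp processing. The other Tnfrsf10b probes were higher with lpr urine by 0.34 and 0.51, each with an error of 0.21 or 0.22. Ripk1 probe 3, also dim (9.50 after MRL/MpJ urine and 13.8 after lpr urine), was higher by 0.73 ± 0.29. Over the processing tried, its difference was as small as 0.23. The remaining 15 probes were between -0.24 and 0.21, Fas probe 1 being at 0.09 ± 0.21 and Fasl at 0.21 ± 0.21. The median of the 19 was 0.05, against 0.00 over all probes.

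**Figure D4:**
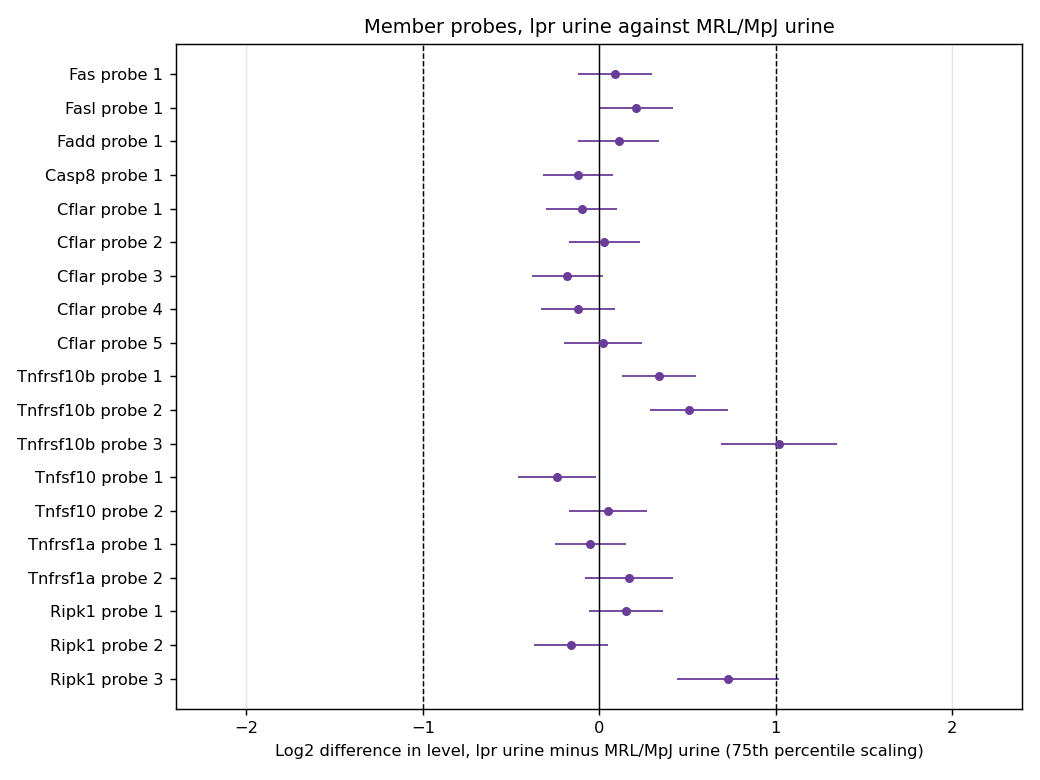
Log2 difference of each of the 19 measured probes between the lpr urine array and the MRL/MpJ urine array, with bars for the joint error and dashed lines at 2-fold. All but Tnfrsf10b probe 3, at 1.02, lie within the lines.

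Genes with the pattern most like that of Fas were found over the 2 differences from PBS, which share the PBS array, among 12894 named genes measured on all 3 arrays. Nearest were Bsg, Lad1 and Pmpca, at distances of 0.006, 0.011 and 0.012 log2 units, and 121 genes lay within 0.1. For Fasl the nearest were Esr1, Trp53 and Olfr47, at 0.0056, 0.0064 and 0.0072, with 122 genes within 0.1. Many genes are therefore as near, and 3 arrays do not single out a partner.

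Other genes of the pathway were taken from 7 lists of 85 genes in all, each gene read from 1 probe. Of 78 measured against PBS, 9 were at least 2-fold higher and 11 lower with MRL/MpJ urine, where 17.6% and 10.6% of 19639 genes were. With lpr urine 10 were higher and 11 lower, against 19.3% and 11.3% of 19368 genes. The same shares of all genes apply to the counts of each list below. The list median was -0.20 and -0.19, against 0.16 and 0.18 over all genes. With lpr urine against MRL/MpJ urine, 0 of 79 were called either way, and 0.335% and 0.065% of 20012 genes were.

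Of 7 measured further receptors and decoys, 3 were lower and 1 higher with each urine. The TNF receptor without a death domain, Tnfrsf1b, read 573 with PBS, 54.6 after MRL/MpJ urine and 49.8 after lpr urine, with differences of -2.5 and -2.44, although its other probe gave 0.64 and 0.66. Tnfrsf26 (828, 99.9 and 77) and the decoy TRAIL receptor Tnfrsf23 (274, 47.9 and 44.1) differed by -2.16 and -2.34, and by -1.63 and -1.55. Ngfr, the neurotrophin receptor with a death domain, read 140, 216 and 164 and was higher by 1.52 and 1.32. Edar, Eda2r and Tnfrsf11b were not well above background on any array.

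Of 5 measured ligands, 3 were higher with each urine and 0 lower. Tnf, the ligand of Tnfrsf1a, read 398 with PBS, 583 after MRL/MpJ urine and 447 after lpr urine, with differences of 1.45 and 1.26 (1.44 to 1.45 and 1.26 to 1.29 over its probes). Tnfsf14 (50.3, 85.8 and 90.5) differed by 1.66 and 1.94, and Tnfsf15 (12.5, 19.3 and 17.1) by 1.52 and 1.54. Lta was within 2-fold (281, 222 and 201), by 0.55 and 0.60, and by -0.37 and -0.43 with spike-in scaling. With that scaling no ligand was 2-fold higher, although the list median of 1.45 and 1.26 remained above 0 at 0.52 and 0.22.

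The TNF receptor complex and its ubiquitin-editing enzymes held 4 lower and 0 higher of 25 genes with each urine. Tnfaip3, which encodes the ubiquitin-editing enzyme A20, read 5720, 516 and 477 and differed by -2.58 and -2.5. Traf1 (6740, 1390 and 1160) differed by -1.38 and -1.45, and Tnip1, a partner of A20, (7760, 1710 and 1370) by -1.29 and -1.42. Otulin, which cleaves linear ubiquitin chains, passed the line narrowly (1130, 301 and 261, at -1.02 with each urine). The signal modulators held 4 lower and 0 higher of 16. Among them were Pea15a (598, 107 and 79.3), which binds FADD, at -1.58 and -1.83, and Madd (3250, 625 and 496) at -1.48 and -1.63. Arrb1 (1250, 267 and 220) differed by -1.34 and -1.42, and Faim, an inhibitor of Fas-induced death, (539, 126 and 109) by -1.21 and -1.22.

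Necroptosis genes had no call among 4 measured. Ripk3, the partner kinase of RIPK1, read 776, 756 and 704 with differences of 0.86 and 0.95, and Zbp1 gave 0.83 and 0.95, both below 0 with spike-in scaling. The other Zbp1 probe gave 0.11 and 0.26. Pgam5 gave -0.68 and -0.66, and Ppm1b -0.78 and -0.96, with 0.62 and 0.75 at another probe. Of the 5 genes of shedding and surface processing, 2 were higher and neither Adam10 nor Adam17 was among them. The 2 were the intramembrane proteases Sppl2b (790, 1290 and 1130, by 1.61 with each urine) and Sppl2a (2460, 3350 and 2500, by 1.34 and 1.11). Another Sppl2a probe gave -0.06 and -0.23. Adam10, which sheds Fas ligand, gave -0.67 and -0.79, and 0.58 and 0.61 at its other probe. Adam17, which sheds TNF, gave 0.27 and 0.48, which turned below 0 with spike-in scaling, and up to 1.38 and 1.89 at its other probes.

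Effector caspases and the mitochondrial arm had 3 higher of 16 with MRL/MpJ urine, 4 with lpr urine and 0 lower. Over all genes, 17.6% and 19.3% were higher and 10.6% and 11.3% lower. With normexp background correction 0 of the 16 were higher with either urine, where 7.95% and 8.9% of all genes were. Gsdmd, the pore-forming gasdermin D, (547, 692 and 607) differed by 1.23 and 1.24. Apaf1, the apoptosome scaffold, differed by 1.01 and 1.03, past the 2-fold line by less than its error of 0.21. Over the Apaf1 probes the differences ran from 0.24 to 1.31 with MRL/MpJ urine and from 0.72 to 1.03 with lpr urine. Gsdme gave 0.90 and 1.21, with another probe at -1.0 and -0.39. With spike-in scaling 0 of the 78 pathway genes were higher and 44 and 49 were lower, where 5.68% and 5.5% of all genes were higher and 40.5% and 44.5% lower.

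**Figure D5:**
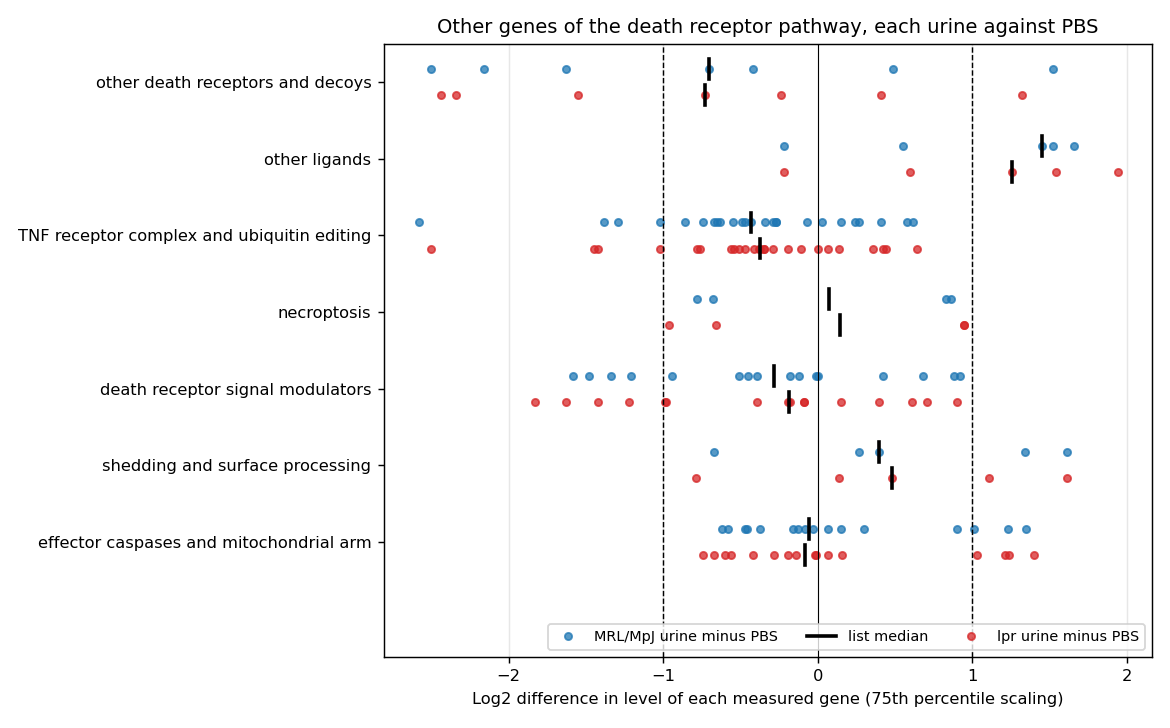
Log2 difference of each measured gene of the 7 pathway lists between either urine array and the PBS array after 75th percentile scaling, points being genes and bars the list medians, with dashed lines at 2-fold. The ligand list lies highest, with medians of 1.45 and 1.26, and the list of receptors and decoys lowest, with medians of -0.70 and -0.73.

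Markers of the cell types in a spleen culture were read beside these genes. The T cell list, whose cells carry much of the Fas ligand, had 8 measured genes of 9 with a median of 0.17 and 0.30. Its summed signal was 37300 with PBS, 24200 after MRL/MpJ urine and 22700 after lpr urine unscaled, and 172, 208 and 223 scaled. The 7 NK cell genes had medians of 0.13 and 0.13, with 3 higher and 0 lower with each urine. Their sums were 4030, 3800 and 3480 unscaled, and 18.6, 32.6 and 34.1 scaled. The 8 B cell genes had medians of 0.99 and 0.95, with 4 higher and 0 lower with each urine. Their sums were 35300, 38200 and 31500 unscaled, and 163, 328 and 309 scaled. The 10 monocyte and macrophage genes had medians of 1.01 and 0.97, with 5 higher and 0 lower with each urine. Under either urine, 4 of 6 plasma cell, 1 of 7 neutrophil and 2 of 5 platelet and megakaryocyte genes were higher. Of the T cell genes 0 and 1 were higher, and of 6 erythroid genes 1 and 2. Of 5 dendritic cell genes 1 was higher and 1 lower, and these other lists had 0 lower. The shares of all genes were 17.6% and 19.3% higher, and 10.6% and 11.3% lower. Medians with MRL/MpJ and lpr urine were 1.21 and 1.13 for plasma cells, 0.76 and 0.87 for neutrophils, 0.21 and 0.11 for dendritic cells, 0.62 and 0.75 for erythroid cells, and 0.84 and 0.87 for platelets and megakaryocytes. With spike-in scaling the T cell and NK cell medians were -0.75 and -0.79 with MRL/MpJ urine, and those of B cells and of macrophages 0.06 and 0.09. For lpr urine the same 4 medians were -0.73, -0.9, -0.09 and -0.06. The part of such shifts in the values of Fas, Fasl and the other genes was not tested. The urothelial and kidney markers Upk1b, Upk2, Upk3a, Umod, Krt5 and Krt20 were not well above background on any array. Of the other genes in this list of 8, Upk1a read 26.0 with PBS, 9.52 after MRL/MpJ urine and 8.77 after lpr urine and was measured on all 3 arrays. Epcam, also a gene of other epithelia, read 24.7, 7.17 and 4.03 and was not well above background with lpr urine.

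Promoters of the members were compared with those of all genes. The sequences are from RefSeq on GRCm38.p6, the 250 bases before the start of the gene, and 8 of the 9 members matched an entry. Shown are Fas, Fadd and Cflar, with matches to the motifs searched in capitals. They are 3 of the 5 members with a probe at least 2-fold lower in either urine at the main scaling.
Fas, chr19:34290409-34290658, plus strand: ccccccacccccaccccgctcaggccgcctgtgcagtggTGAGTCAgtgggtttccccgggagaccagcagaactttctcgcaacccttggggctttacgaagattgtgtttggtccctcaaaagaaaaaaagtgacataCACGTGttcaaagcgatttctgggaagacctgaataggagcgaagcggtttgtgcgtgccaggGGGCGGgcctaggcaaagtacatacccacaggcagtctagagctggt
Fadd, chr7:144582442-144582691, minus strand: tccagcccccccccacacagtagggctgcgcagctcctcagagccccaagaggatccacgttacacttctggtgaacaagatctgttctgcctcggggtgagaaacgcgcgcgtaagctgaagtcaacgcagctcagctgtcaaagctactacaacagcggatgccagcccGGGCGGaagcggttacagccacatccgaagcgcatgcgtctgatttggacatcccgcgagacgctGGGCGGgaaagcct
Cflar, chr1:58711241-58711490, plus strand: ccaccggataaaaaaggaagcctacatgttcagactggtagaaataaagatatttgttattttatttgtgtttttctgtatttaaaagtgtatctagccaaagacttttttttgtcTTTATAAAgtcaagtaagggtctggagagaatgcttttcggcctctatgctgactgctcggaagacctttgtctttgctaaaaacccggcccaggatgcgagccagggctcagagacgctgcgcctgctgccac
Motifs were searched on both strands. The GC box GGGCGG was found before Fas, Fasl, Fadd and Ripk1, 4 of 8 members, and in 32.7% of 32851 promoters. Members are counted by gene, whereas the shares of all are per promoter. Ripk1 has 2 promoter entries, each with a GC box. The AP-1 site TGANTCA was found in 1 member, Fas, 211 to 205 bases before the start, and in 6.75% of promoters. The E-box CACGTG also occurred only in Fas among the members, 110 to 105 bases before the start, and in 6.02% of promoters. The TATA box TATAAA was found in Cflar alone, as matches on both strands that overlap, and in 12.4% of promoters. The kappaB motif, the CRE TGACGTCA and the interferon-stimulated response element were found in 0 of 8, and in 3.9%, 1.55% and 2.98% of promoters. These are matches of letters in a window, and no binding was measured.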

How the data were processed

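Per the file headers and the submitters' processing notes, the authors' arrays were read with Agilent Feature Extraction 12.0.3.1. The deposited values are intensity: processed signal, background-subtracted within each array and not scaled between arrays. Positions of probes are those of the deposited mm9 annotation.

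Control spots and spots with outlier flags were left out, and repeated spots of a probe were averaged. The level was the log2 of that signal after subtraction of its 75th percentile over the array's 59305 non-control spots. Each member probe was kept apart. Other genes were read from the probe well above background on most arrays, then the brightest. In each pathway list up to 4 genes with the largest difference were named, except 1 gene that is not reported here. The members and lists were chosen with earlier results of these data known. Alternatives were median, spike-in, detected-probe and quantile scaling, normexp (offset 50, limma 3.58.1 in R 4.3.3), no filter, and the mean over probes. Averaging spots before the percentile and a signal minimum of 30 were chosen after seeing the data. Scripts used Python 3.11.15, numpy 2.4.6 and pandas 2.3.3 and were tested on simulated data.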

Additional observations from a re-analysis of the deposited data

How the results depend on the processing

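The number of the 19 member probes at least 2-fold lower than PBS was 7 for MRL/MpJ urine and 5 for lpr urine. Of all probes, 11.8% and 12.5% were. The member count was 15 and 16 with spike-in scaling (43.1% and 47.0% of all probes) and 9 and 7 with median scaling (22.0% and 23.1%). With normexp background correction it was 2 and 2 (6.14% and 6.9%). It was 4 and 3 when a signal of 30 on both arrays was required. That limit was chosen after seeing the data and leaves 12 probes for each urine, and no share of all probes is given for it. With the 75th percentile over detected probes the member count was 4 and 5, where 10.2% and 10.7% of all probes were lower. The count higher with lpr urine than with MRL/MpJ urine, 1, was 0 with median scaling, spike-in scaling, normexp and the signal minimum. Without a filter 1 probe, the undetected Fas probe 2, counted as higher with lpr urine than PBS. Tnfrsf10b probe 3 reversed to 0.26 with normexp in MRL/MpJ urine against PBS. Of all probes called against PBS, 57.6% and 58.5% were higher at the main scaling, 30.7% and 30.8% with median scaling, 10.5% and 9.5% with spike-in scaling, and 47.3% and 48.3% with quantile normalisation. For lpr urine against MRL/MpJ urine that share was 78.8%, and 48.6% with spike-in scaling and 58.3% with normexp. The median of all probes was -0.84 and -0.93 with spike-in scaling and 0.26 and 0.29 with normexp. The cause of these differences was not tested. No paired analysis was possible because each condition had 1 array. With no replicate, only the signal over background and the software's error limit these values, and dim probes such as Tnfrsf10b probe 3 are the least certain.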
